A study of Ovis aries with 15 samples.

Results

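Glucuronosyltransferases and sulfotransferases attach a glucuronic acid or a sulfate group to steroids, bilirubin, bile acids, thyroid hormones, drugs and plant compounds such as curcumin, and so make them more soluble and easier to excrete. The UGT enzymes sit in the membrane of the endoplasmic reticulum and use UDP-glucuronate, whereas the SULT enzymes are cytosolic and use the sulfate donor PAPS. Both families are most abundant in liver, and the kidney carries a narrower set, largely in the proximal tubule. A separate class of sulfotransferases in the Golgi apparatus adds sulfate to the sugar chains of proteoglycans and to tyrosines of secreted proteins.

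The genes described here were all rows of the expression table whose symbol began with UGT1, UGT2, UGT3 or SULT, or whose description named a UDP-glucuronosyltransferase or contained the words sulfotransferase 1. This gave 44 of 25592 genes, of which 8 were UGT1, 14 UGT2, 2 UGT3 and 8 cytosolic SULT genes. The other 12 were Golgi sulfotransferases that the wording of their descriptions brought in, and they are described apart. The rule used no expression value.

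The study fed male crossbred Dorper × Small-tailed Han sheep, 4 months old, for 21 days, with 6 sheep per group, and the kidney RNA of 5 sheep per group was sequenced. The CON group received a total mixed ration, the AFB1 group the same ration with aflatoxin B1 (AFB1, a mould toxin) at 500 µg/kg dry matter, and the AFB1_CUR group that dose of AFB1 together with curcumin (CUR, a polyphenol of turmeric) at 800 mg/kg dry matter. No group received CUR without AFB1, so an effect of CUR by itself was not measured. A portion of the kidney was sequenced, and which region it came from was not stated.

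Depth was between 50255295 and 68747047 counts in each of the 15 libraries. The library labelled AFB1 replicate 1 stood apart from the other 14. All 15 hepatocyte markers lay higher in it than in every other library (mean log2(FPKM + 1) of 10.63 against 1.38 to 2.78), and all 8 proximal tubule markers lay lower (0.70 against 6.73 to 8.42), as did all 9 loop and collecting duct markers, of which 3 were at 0 (0.53 against 5.18 to 6.32). Its markers thus go against its label of kidney. It was left out of the group values, which hold 5 CON, 4 AFB1 and 5 AFB1_CUR libraries, and is described by itself. Expression levels are given as FPKM, fragments scaled to transcript length and to the depth of the library, which allows levels to be compared between genes of different length.

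In the 14 kidney libraries the sulfotransferase SULT1A1 (LOC101114075, chr24:26637332-26641203), which sulfates phenols, had by far the highest level of the 44 genes. Its FPKM was lowest at 119.2, had a median of 224.3 and was highest at 352.1, which placed it between rank 131 and rank 354 of the 25592 genes in the single libraries. It supplied a median of 73.98% of the summed FPKM of the 8 cytosolic SULT genes. The next member of that family, a SULT1C4-like gene (LOC101116298, chr3:61892113-61900746), had a median FPKM of 42.16 (31.05 to 65.27), and its range did not touch that of SULT1A1. SULT1C2 (chr3:61851144-61865167), its neighbour on chromosome 3, followed with a median of 15.53 (8.728 to 31.45). SULT2B1 (chr14:54965371-55001551), which sulfates cholesterol and other sterols, had a median of 3.12 (1.421 to 9.757).

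The glucuronosyltransferases were expressed at a lower level as a whole. The 24 UGT genes summed to a median of 63.87 FPKM (34.28 to 118.5), against 299.3 (171.9 to 424.3) for the 8 cytosolic SULT genes. Most of the UGT sum came from few genes. UGT1A9, which glucuronidates phenols and many drugs, had a median FPKM of 21.11 (8.278 to 54.26) and supplied a median of 34.21% of the sum. UGT1A6, which takes small planar phenols, had a median of 15.7 (9.037 to 42.99) and supplied 28.46%. A UGT2C1-like gene (LOC101122788, chr6:85569594-85658692) had a median of 9.723 (3.17 to 21.86) and supplied 15.54%. The ranges of these 3 genes overlapped. UGT1A1, the bilirubin-conjugating enzyme, had a median of 3.648 (1.246 to 7.624) and supplied 5.95%.

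The 5 named UGT1A genes lie on chromosome 1 between 7254898 and 7426072 on the minus strand. UGT1A1, UGT1A3, UGT1A4 and UGT1A6 had the same end point at 7254898 in the deposited coordinates and UGT1A9 ended 1 base from it. In mammals the genes of this locus join a first exon of their own to a common set of last exons. How reads in the common exons were divided between them was not stated, so the single UGT1A values are uncertain and their sum is firmer. The sum of the 8 UGT1 genes was 45.35 ± 16.93 (SD, n = 5) in CON, 48.52 ± 17.72 (n = 4) in AFB1 and 45.59 ± 16.76 (n = 5) in AFB1_CUR.

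Among the other UGT2 genes, 4 with the description UGT2B4-like passed the filter on low values, which asked that 5 or more of the 14 libraries had an FPKM of 1 or above. One of them (LOC114110057) lies on chromosome 21 and had a median FPKM of 3.773 (1.157 to 11.83). The other 3 (LOC121816013, LOC114115345 and LOC114112219) are neighbours on chromosome 6 and had medians of 2.055, 1.737 and 2.046. Within a library the highest of these 3 copies was 1.04 to 2.09 times the lowest, while their sum ranged from 1.996 to 16.02 between libraries. If the copies are alike in sequence, which was not measured here, they can share reads, so the values of the single copies are uncertain.

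Altogether 22 of the 44 genes passed the filter, namely 3 UGT1, 5 UGT2, 5 cytosolic SULT and 9 Golgi genes. Another 20 were below an FPKM of 1 in all 14 libraries. UGT1A3 reached at most 0.308 and UGT1A4 0.0696, and UGT2B7, which glucuronidates opioids and steroids, at most 0.23. The 2 UGT3 genes, which use other sugars than glucuronate, reached at most 0.397 and 0.212. SULT4A1, SULT6B1 and the SULT1C1 gene (LOC101115778) reached at most 0.172, 0.0921 and 0.109. A non-coding RNA also described as SULT1C1 (LOC105606428), which overlaps that gene on the opposite strand, had a median of 1.507 (0.6641 to 3.884). Whether the counting used the strand was not stated, so the 2 overlapping rows cannot be kept fully apart. The remaining 2 genes were between these classes, with HS3ST1, a heparan sulfate 3-O-sulfotransferase, at 0.139 to 2.612 and a second UGT2C1-like gene (LOC101123042) at 0.0237 to 3.225.

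The summed level of the Golgi sulfotransferases had a narrower range between libraries. It had a median of 88.93 FPKM (72.0 to 105.1). HS6ST1, which adds 6-O-sulfate to heparan sulfate, was highest with a median of 42.24 (31.4 to 57.62), followed by CHST15 with 16.62 (10.73 to 22.38), CHST10 with 9.391 (7.989 to 12.18) and NDST1, which opens heparan sulfate synthesis to sulfation, with 7.02 (5.2 to 9.242). CHST14, TPST1, HS2ST1, CHST12 and CHST11 had medians between 1.105 and 3.554. CHST13 and CHST1 stayed at most at 0.905 and 0.656.

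**Figure D1:**
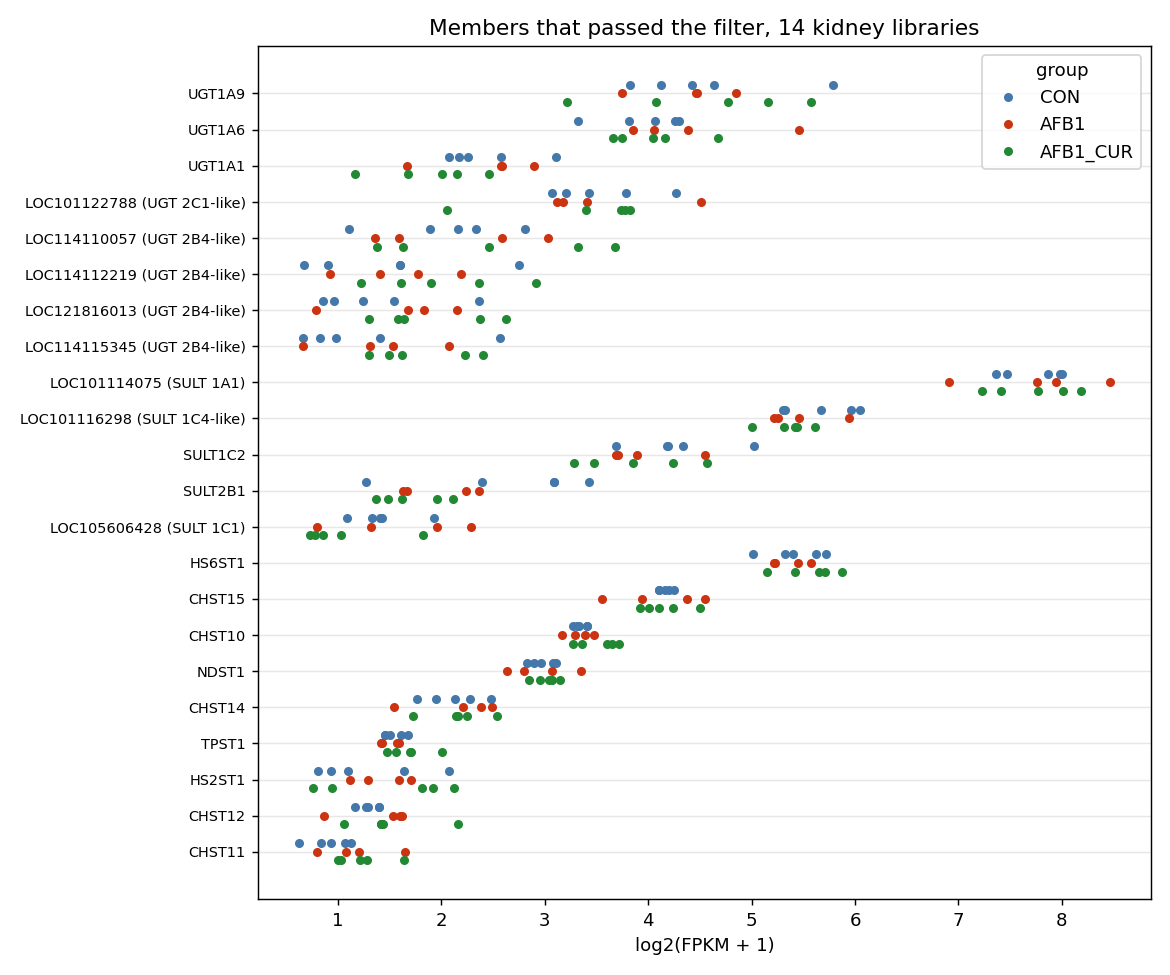
Expression of the 22 genes that passed the filter, as log2(FPKM + 1) on the x axis, with 1 point per library and the 14 kidney libraries coloured by group. SULT1A1 (LOC101114075) stands to the right of all others at 119.2 to 352.1 FPKM, and for most genes the points of the 3 groups overlap.

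In the library labelled AFB1 replicate 1, most of the UGT genes were far higher than in the others. It was compared by its log2(FPKM + 1) with the median of the other 14 libraries, without a test, since it is 1 library. Of the 24 genes that reached an FPKM of 1 in any of the 14, 7 (29.2%) were at least 4-fold higher in it and 3 (12.5%) at least 4-fold lower. Over all 14858 genes with such a value the shares were 2.7% and 6.85%. It lay above all 14 for 10 of the 24 (41.7%, against 9.54% of all genes) and below all 14 for 7 (29.2%, against 58.9%). Another 14 of the 44 genes reached an FPKM of 1 in AFB1 replicate 1 alone, so these had to be higher there, and 13 of them were at least 4-fold higher. This makes 20 of the 44 genes at least 4-fold higher, and no share is read from the added ones (over all 15298 genes with an FPKM of 1 in any of the 15 libraries, 4.19% were at least 4-fold higher and 6.65% lower).

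Of the 20 higher genes, 18 were UGT genes. The highest was UGT1A1 with an FPKM of 293.4, which was 38.5 times the highest of the other libraries. UGT1A3 followed with 182.4, the 4 UGT2B4-like genes that passed the filter lay between 108.7 and 145.2, and UGT1A6 was at 137.7, 3.2 times the highest of the others. UGT2B7 was at 117.8, LOC101119393 and LOC101119640, both described as UGT2A1, at 116.7 and 52.38, UGT2B31 (LOC101116729) at 72.11 and UGT1A4 at 31.57. The UGT2B4-like genes LOC101117764, LOC101117163 and LOC101118447 were at 56.31, 13.44 and 6.703. Both UGT3 genes were in this set, at 58.99 and 53.6, as was LOC114113989, described as UGT1-5-like, at 3.492. These were mostly genes that the kidney libraries hardly expressed.

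The remaining 2 of the 20 were sulfotransferases, the SULT1C4-like gene at 271.3 FPKM, 4.16 times the highest of the other libraries, and CHST13, which sulfates chondroitin, at 15.6. SULT1A1 stood at 725.9, 2.06 times the highest of the others. Its log2(FPKM + 1) lay 1.69 above their median, where 4-fold is 2. The summed UGT level was 1726 FPKM, against the median of 63.87, and the cytosolic SULT sum was 999.0, against 299.3. The SULT sum holds only the 8 genes of the naming rule. Sulfotransferase genes outside it were also high in this library, with LOC101119842 at 1023 and LOC101104832 at 600.7, so the 2 sums do not compare the whole families.

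Several genes that are prominent in the kidney libraries were not higher in this library. UGT1A9 was at 13.36 FPKM and the UGT2C1-like gene LOC101122788 at 17.57, both within the range of the other 14, so that UGT1A9 supplied 0.774% of the UGT sum of this library and the UGT2C1-like gene 1.02%. SULT1C2 was at 0.644, and the lowest of the other libraries was 13.5 times higher. SULT2B1 had a count of 0, against counts of 95 to 792 in the others. CHST15 was at 1.814, below the lowest value of 10.73. SULT1C2, SULT2B1 and CHST15 are the 3 genes at least 4-fold lower.

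**Figure D2:**
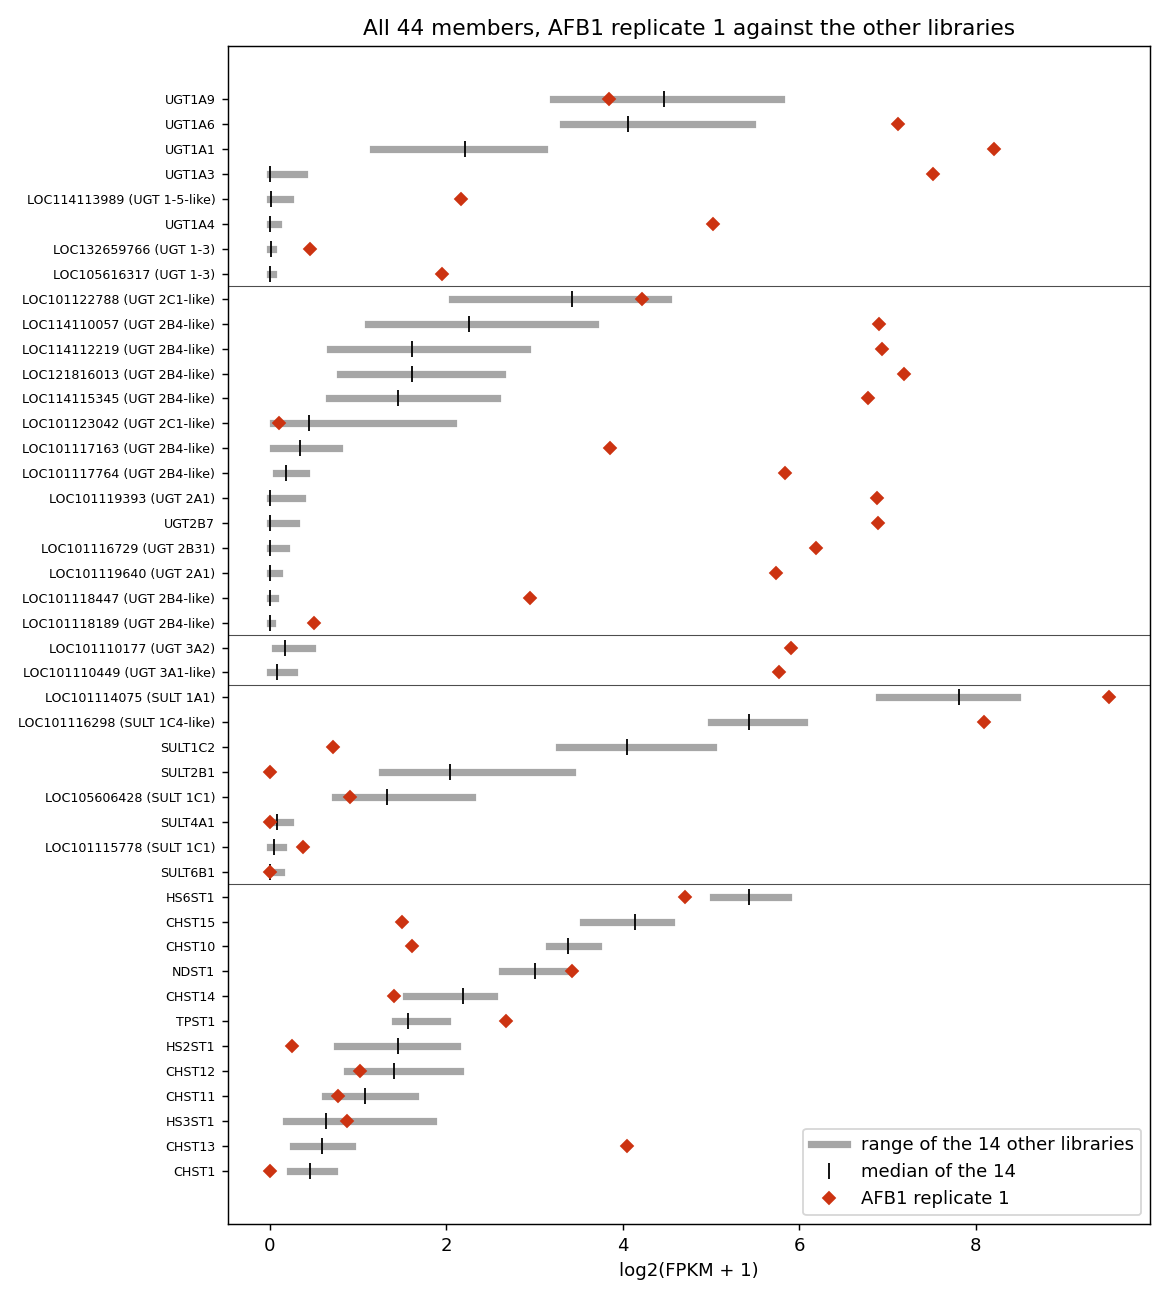
All 44 genes by enzyme group, with log2(FPKM + 1) on the x axis, the grey bar giving the range of the 14 kidney libraries, the black tick their median and the red diamond AFB1 replicate 1. The diamonds lie far to the right of the bars for most UGT genes and within the bars for UGT1A9 and LOC101122788. They lie to the left for 8 genes, namely SULT1C2, SULT2B1 and 6 Golgi genes, with CHST15 among these.

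The comparison of AFB1 with CON asked which conjugating enzymes change in the kidney when the toxin is fed. SULT2B1 was lower in AFB1, and it was the sole gene of the 22 that was called. Its FPKM in the CON libraries 1 to 5 was 7.508, 7.515, 9.757, 4.254 and 1.421, and in the AFB1 libraries 2 to 5 it was 2.187, 4.16, 2.107 and 3.735. Of the CON libraries 4 lay above every AFB1 library, and CON replicate 5 lay below them all, so the groups overlapped. The log2 fold change was -0.98 (SE 0.446), with an unadjusted p of 0.0446 and a Benjamini-Hochberg adjusted p of 0.957 over all genes, by edgeR's quasi-likelihood test. A call needed a fold change of more than 1.5 together with an unadjusted p below 0.05, conditions that follow the published methods. By this rule 1.76% of the 13162 tested genes were called and 1.11% were called lower, against 1 of the 22 (4.55%), and no gene of the table passed after adjustment, where 664 had an unadjusted p under 0.05 and DESeq2 gave 17 adjusted calls.

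This call was fragile. It was lost in 8 of the 14 fits that left out 1 library, namely those without CON replicate 1, 2 or 3, AFB1 replicate 2 or 4 or AFB1_CUR replicate 2, 3 or 4, with a log2 fold change between -1.24 and -0.74 over the 14 fits. Without AFB1 replicate 2 and AFB1_CUR replicate 2, the libraries with the highest leukocyte scores (4.04 and 5.03, against at most 2.39 in the rest), it was -0.82 and not called (unadjusted edgeR p of 0.128).

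The other 21 genes were not called. UGT1A6 was 18.19, 15.76, 18.71, 9.037 and 13.04 FPKM in CON and 13.5, 19.96, 15.63 and 42.99 in AFB1. Its means were 14.95 ± 3.998 (SD, n = 5) and 23.02 ± 13.58 (n = 4), and the higher AFB1 mean came from AFB1 replicate 5, while the other 3 libraries lay within or just above the CON range (log2 fold change 0.66, SE 0.361, unadjusted p of 0.0873 and adjusted p of 0.957, edgeR). It was 0.09 without AFB1 replicate 5, and 0.88 and called without AFB1 replicate 2. Without both AFB1 replicate 2 and AFB1_CUR replicate 2 it was 0.89 and called. Without AFB1 replicate 5, CHST11 was called beside SULT2B1. UGT1A1 was 4.621 ± 1.805 (n = 5) in CON and 4.667 ± 1.793 (n = 4) in AFB1, and SULT1A1 was 215.5 ± 42.97 and 232.9 ± 95.94. UGT1A9 was 25.65 ± 16.49 in CON, where replicate 5 alone was at 54.26 and the others between 13.18 and 23.84, and 20.66 ± 6.324 in AFB1. The SULT1C4-like gene was 50.79 ± 12.32 and 44.21 ± 11.33, and SULT1C2 19.39 ± 7.269 and 15.08 ± 5.014. The median log2 fold change of the 22 genes was 0.0027, against 0.016 over all tested genes, with SEs from 0.0994 to 0.639 and a median SE of 0.36.

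When AFB1 replicate 1 was kept in the AFB1 group, the picture was another one. Then 6 of the 22 genes (27.3%) were called, all higher in AFB1, against 4.84% of all tested genes (3.84% higher). They were UGT1A1, UGT1A6 and the 4 UGT2B4-like genes. The log2 fold change of UGT1A1 became 4.42, where it was -0.01 without that library, and that of UGT1A6 became 2.09. The UGT2B4-like genes were at 3.56 (LOC114110057), 4.18 (LOC114112219), 4.35 (LOC114115345) and 4.72 (LOC121816013). SULT2B1 was then not called (unadjusted edgeR p of 0.111).

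**Figure D3:**
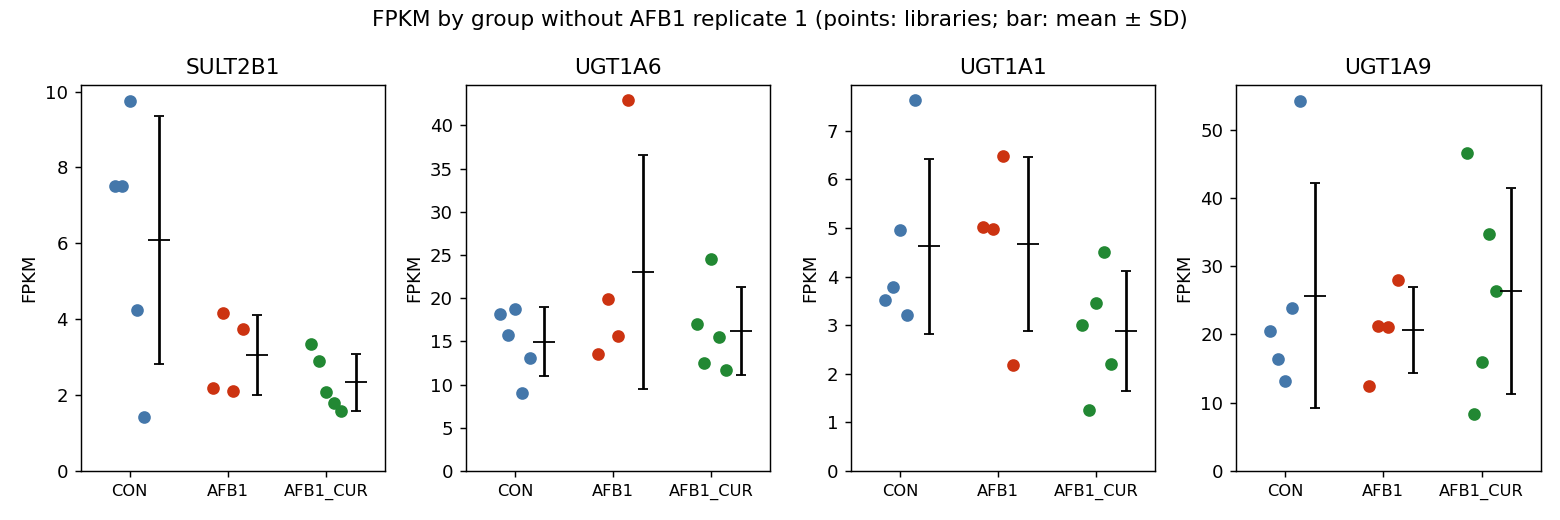
FPKM of SULT2B1, UGT1A6, UGT1A1 and UGT1A9 in the 3 groups without AFB1 replicate 1, with 1 point per library and the mean ± SD beside them. SULT2B1 lies between 4.254 and 9.757 in 4 CON libraries and at 1.421 in the other, and the points of the groups overlap in the other 3 panels.

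The comparison of AFB1_CUR with AFB1 asked what CUR adds in the presence of the toxin. None of the 22 genes was called, against 0.935% of all tested genes, and none had an unadjusted p under 0.05 (edgeR; 303 of all genes did). With DESeq2, 1 gene was called, the non-coding RNA LOC105606428. Its FPKM was 1.5, 3.884, 0.7469 and 2.892 in AFB1 and 0.7178, 0.6641, 2.546, 1.041 and 0.8139 in AFB1_CUR, so the groups overlapped. UGT1A1 was 2.883 ± 1.239 (SD, n = 5) in AFB1_CUR, with libraries at 3.013, 1.246, 3.456, 4.509 and 2.193, against 5.021, 4.986, 6.474 and 2.186 in AFB1 (log2 fold change -0.71, SE 0.39, unadjusted edgeR p of 0.0885). UGT1A6 was 16.23 ± 5.12 and SULT1A1 216.4 ± 59.16 in AFB1_CUR, both within 1 SD of their AFB1 means. Leaving out 1 library brought calls here. UGT1A1 was called at -0.95 without AFB1_CUR replicate 4 and at -0.93 without AFB1 replicate 5, UGT1A6 at -0.80 without AFB1_CUR replicate 3 and at -0.81 without AFB1 replicate 2, and LOC105606428 without AFB1_CUR replicate 3, AFB1 replicate 2 or AFB1 replicate 4.

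With AFB1 replicate 1 in the AFB1 group, 7 of the 22 genes (31.8%) were called lower in AFB1_CUR, against 3.98% of all tested genes in either direction and 3.39% lower. They were the 6 genes named above, with UGT1A1 at a log2 fold change of -5.13 and UGT1A6 at -2.02, and the SULT1C4-like gene at -1.67. These 2 comparisons have the AFB1 libraries in common, so 1 library enters both.

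Between AFB1_CUR and CON, SULT2B1 was again the sole gene called, and it was lower in AFB1_CUR. Its FPKM in AFB1_CUR was 3.34, 2.9, 2.082, 1.804 and 1.583, with a mean of 2.342 ± 0.748 (SD, n = 5), against 6.091 ± 3.266 (n = 5) in CON. All 5 libraries lay below 4 of the CON libraries and above CON replicate 5. The log2 fold change was -1.44 (SE 0.42), with an unadjusted p of 0.00405 and an adjusted p of 0.823 by edgeR's quasi-likelihood test. It was called in each of the 14 fits that left out 1 library (-1.70 to -1.20). Other genes joined it in 3 of these fits, the 3 neighbouring UGT2B4-like genes without CON replicate 5, CHST11 and LOC105606428 without AFB1_CUR replicate 3, and UGT1A1 without AFB1_CUR replicate 4. Of all tested genes 1.63% were called and 0.577% were called lower, against 1 of the 22, and none passed after adjustment, where 723 had an unadjusted p under 0.05 and DESeq2 gave 1 adjusted call. Both comparisons use the same CON libraries, so they are no independent evidence of a lower SULT2B1 level. With all 15 libraries none of the 22 was called, against 0.993% of all genes, and the p of SULT2B1 was 0.0817.

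**Figure D4:**
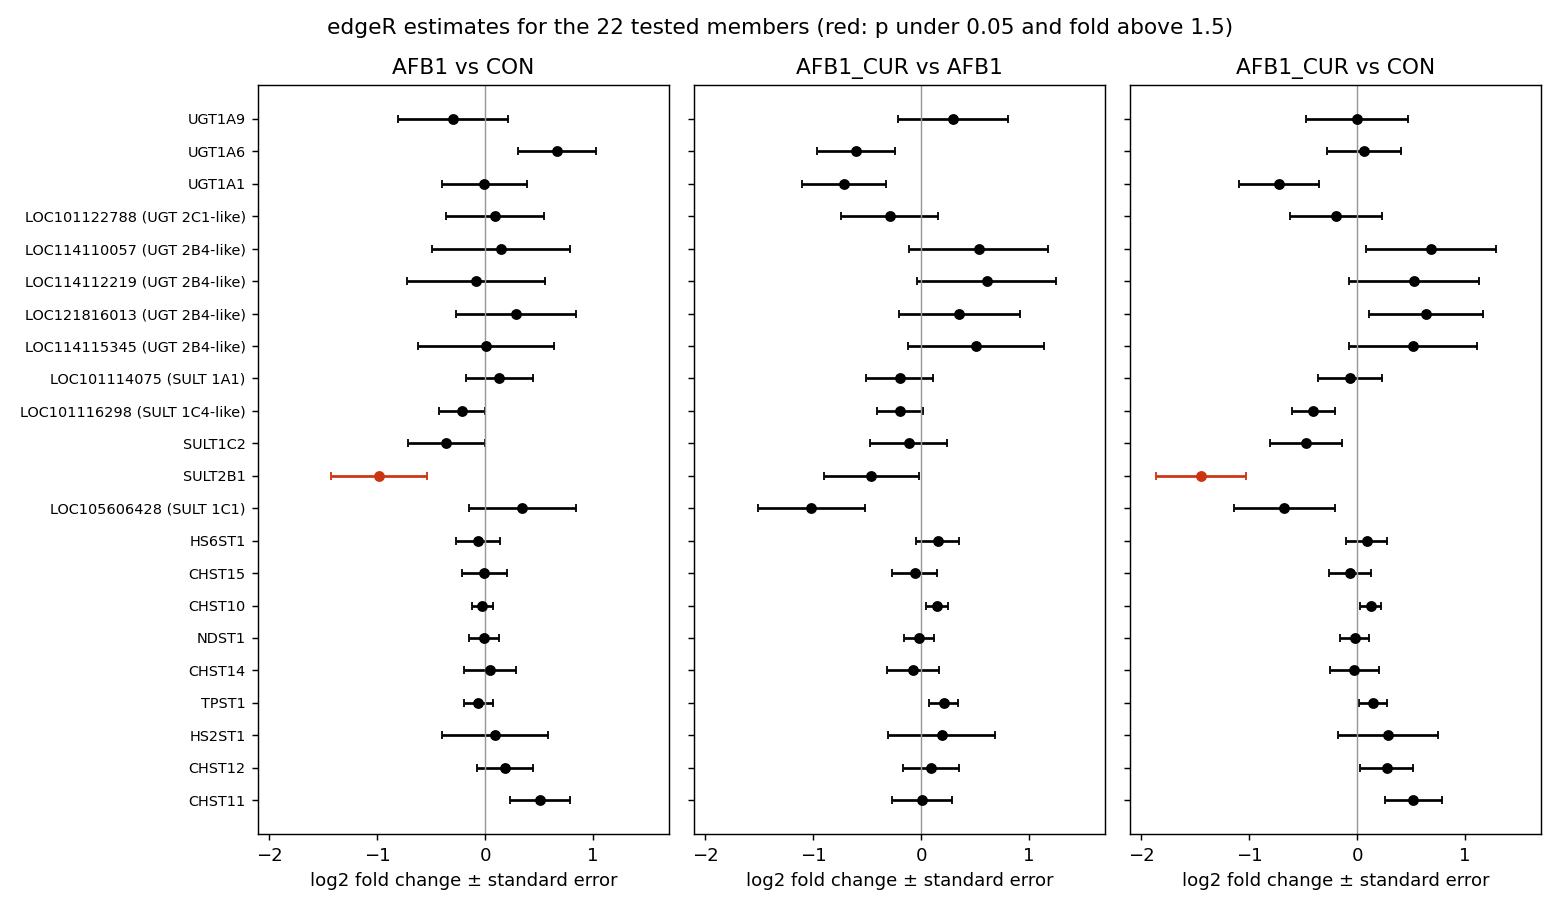
Log2 fold changes on the x axis with their standard errors (edgeR, 14 libraries) for the 22 tested genes in the 3 comparisons. SULT2B1, in red, is the one called gene, at -0.98 for AFB1 against CON and -1.44 for AFB1_CUR against CON, and the panel of AFB1_CUR against AFB1 holds no call.

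Genes listed for the supply, removal and control of these conjugates were read from lists. In the supply of UDP-glucuronate, all 4 genes were tested and 1 was called between AFB1 and CON, where 1.76% of all tested genes were. UGDH (chr6:59319017-59353379), which oxidises UDP-glucose to UDP-glucuronate, rose in AFB1. Its FPKM was 1.589, 1.52, 1.678, 1.907 and 1.825 in CON and 2.543, 2.773, 1.574 and 3.403 in AFB1, with AFB1 replicate 4 inside the CON range. The log2 fold change was 0.60 (SE 0.21), with a p of 0.0133 and an adjusted p of 0.957 (edgeR), and the call was lost without CON replicate 1, CON replicate 2, AFB1 replicate 3 or AFB1 replicate 5, and with limma on log2(FPKM + 1), at 0.38, or log2(FPKM + 0.1), at 0.52. In AFB1_CUR it was 2.711, 3.745, 2.198, 2.195 and 1.99, all above the CON libraries, but its fold change against CON stayed under 1.5 (log2 fold change 0.50, SE 0.2, unadjusted p of 0.0248 and adjusted p of 0.823, edgeR). UGP2, which makes UDP-glucose, had the highest level of this list with a mean FPKM of 17.05 and was not called.

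In the list for hydrolysis of conjugates, 4 of the 5 genes were found by symbol and tested, and STS was not found. Between AFB1 and CON 1.76% of all tested genes were called and 1.11% were called lower. ARSG (chr11:60958196-61060024), a lysosomal arylsulfatase, fell in AFB1 and was the sole gene called of these 4. Its FPKM was 5.482, 7.643, 4.767, 7.406 and 7.405 in CON and 4.46, 5.357, 3.056 and 2.786 in AFB1, where 3 of the 4 libraries lay below all CON libraries. The log2 fold change was -0.76 (SE 0.244), with a p of 0.00772 and an adjusted p of 0.957 (edgeR), and no left-out library ended the call. With all 15 libraries and sample quality weights it was -0.54 and not called, and neither was UGDH at 0.32. ARSA had the highest level of the list, with a mean of 22.38. Whether the arylsulfatases of this list act on the products of the SULT enzymes was not tested.

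None of the 9 tested genes of PAPS supply was called in any of the 3 comparisons, nor were the 3 tested conjugate exporters or the regulators named here. Without AFB1 replicate 5, ABCC2, ABCC3 and HNF4A were also called between AFB1 and CON. In PAPS supply the sulfate transporter SLC26A1 was highest at a mean FPKM of 132.6. Among the exporters ABCC2, which pumps conjugates across the apical membrane, was highest at 11.07, and among the regulators NFE2L2, which controls antioxidant genes, at 64.27 and HNF4A, a regulator of liver and proximal tubule genes, at 49.19. PAPSS2, one of the enzymes that make PAPS, was at 6.08 in the kidney libraries and at 125.4 in AFB1 replicate 1.

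The last comparison asked which of these genes moved together with proximal tubule genes across libraries. Each gene was fitted in edgeR on a proximal tubule score, the mean log2(FPKM + 1) of 8 marker genes, with the group in the model. The score ran from 7.30 to 8.42 in CON, 6.90 to 8.20 in AFB1 and 6.73 to 8.01 in AFB1_CUR, so the groups overlapped. In bulk tissue, fewer tubule cells and less RNA per cell cannot be told apart. Of the 22 genes 7 (31.8%) had a slope at an adjusted p under 0.05, 4 positive (18.2%) and 3 negative (13.6%), against 24.6% of all tested genes (11.9% positive and 12.7% negative). The number called was thus close to that of genes in general. The estimates lay higher, with a median slope of 0.46 for the 22 genes against -0.014 over all tested genes. Of the 22 estimates 18 were above 0, and most of them did not pass.

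The 2 steepest slopes were those of UGT1A9 and the UGT2C1-like gene LOC101122788. UGT1A9 rose by 1.46 in log2 per unit of score (SE 0.241, adjusted p = 0.00145, edgeR). Its lowest value of 8.278 FPKM was in AFB1_CUR replicate 2, the library with the lowest score, and its highest value of 54.26 in CON replicate 5, the library with the highest. LOC101122788 rose by 1.37 per unit (SE 0.163, adjusted p = 0.000298, edgeR), from 3.17 FPKM in AFB1_CUR replicate 2 to 18.34 in CON replicate 5 and 21.86 in AFB1 replicate 5. UGT1A1, UGT1A6 and the UGT2B4-like genes had no slope that passed. Their estimates ran from 0.32 (UGT1A1) to 1.15 (LOC114112219), with SEs from 0.289 to 0.649. SULT1A1, which is far more abundant, had a slope of 0.63 at the edge of the threshold (adjusted p = 0.0497, edgeR), which passed in 5 of the 14 fits with 1 library left out. With the replicate number as a block in the model, LOC101122788 was the sole one of the 22 genes whose slope passed, so that of UGT1A9 did not.

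HS6ST1 had a positive slope of 0.43 (SE 0.128, adjusted p = 0.0261, edgeR). The 3 negative slopes were those of CHST12 (-0.67, SE 0.139, adjusted p = 0.00486, edgeR), CHST14 (-0.57, SE 0.159, adjusted p = 0.0198, edgeR) and CHST11 (-0.57, SE 0.194, adjusted p = 0.0472, edgeR), all Golgi enzymes that act on chondroitin or dermatan chains. CHST15, which also sulfates chondroitin chains, had a slope of 0.40 that did not pass (adjusted p = 0.0688, edgeR). The slope of CHST11 passed in 5 of the 14 fits with 1 library left out. CHST12 was highest in AFB1_CUR replicate 2 at 3.469 FPKM and lowest in AFB1 replicate 5 at 0.826. AFB1_CUR replicate 2 also had the highest leukocyte score, 5.03. Without it and AFB1 replicate 2, 3 of the 7 slopes passed, those of UGT1A9, LOC101122788 and CHST14, and that of CHST12 was -0.52 (adjusted p = 0.0574, edgeR). The part of leukocyte RNA in these slopes was not tested.

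Correlations with the score over the 14 libraries were computed for the 7 genes with a called slope, so they describe those slopes and add no independent test. Pearson's r was 0.837 for UGT1A9 (permutation test, two-sided p = 0.00017) and Spearman's rho 0.82 (p = 0.00052, permutation test), and r was 0.698 without the 2 libraries farthest from the median score. For LOC101122788, r was 0.878 (permutation p = 1e-05, the smallest that 100000 permutations can give), rho 0.877 (permutation p = 0.0001) and r without those 2 libraries 0.828. For CHST12, r was -0.806 (permutation p = 0.0002), rho -0.815 (permutation p = 0.00083) and r without them -0.849. For CHST14, r was -0.805 (permutation p = 0.00055), rho -0.798 (permutation p = 0.00105) and r without them -0.73. The other 3 were weaker. For CHST11, r was -0.701 (permutation p = 0.0047), rho -0.657 (permutation p = 0.0131) and r without them -0.457. For HS6ST1, r was 0.584 (permutation p = 0.0295), rho 0.569 (permutation p = 0.0364) and r without them 0.429. For SULT1A1, r was 0.529 (permutation p = 0.0514), rho 0.552 (permutation p = 0.0428) and r without them 0.474.

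Among the regulators, HNF4A, the bile acid receptor NR1H4, the xenobiotic receptor NR1I2, PPARA and the vitamin D receptor VDR had positive slopes. SLC35D1, which carries UDP-glucuronate into the endoplasmic reticulum, SLC13A1, a sulfate transporter of the proximal tubule, and ABCC2 also rose with the score. NFE2L2, AHR, ARNT, RXRA and NR1I3 had no slope that passed.

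**Figure D5:**
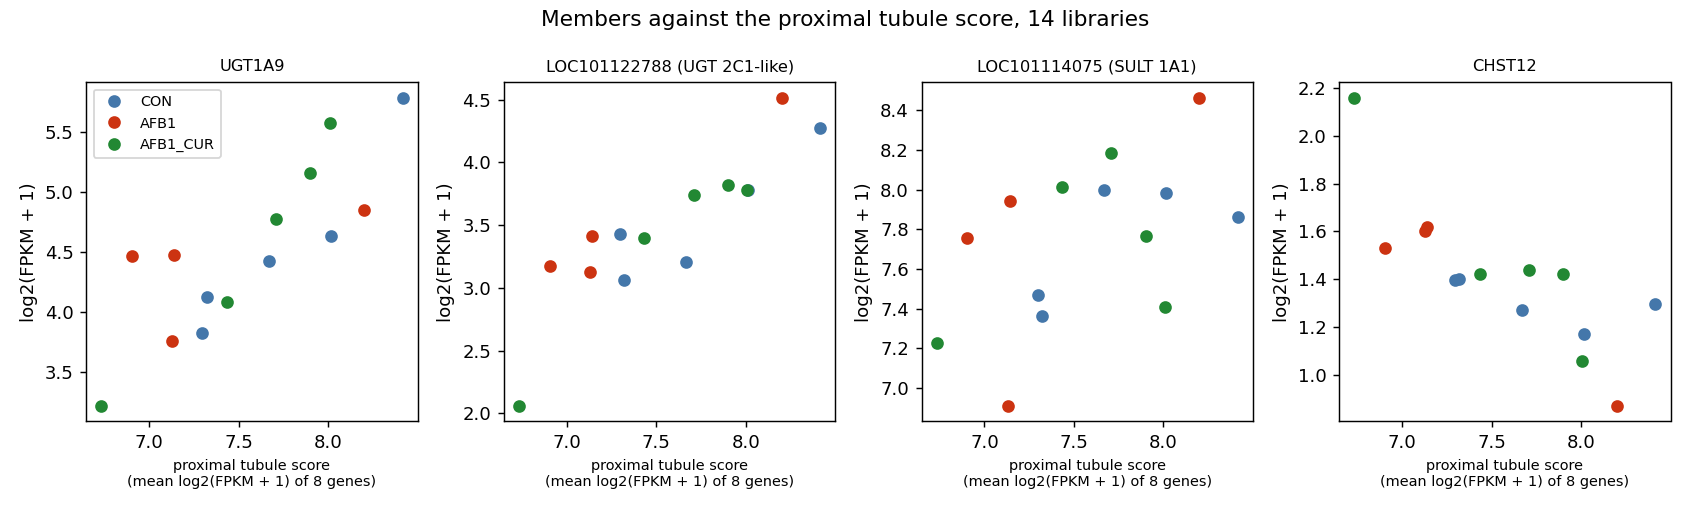
Log2(FPKM + 1) of UGT1A9, LOC101122788 (UGT2C1-like), LOC101114075 (SULT1A1) and CHST12 against the proximal tubule score in the 14 kidney libraries, coloured by group. UGT1A9 and LOC101122788 rise along the score over the 14 libraries, SULT1A1 scatters more widely and CHST12 falls. Within AFB1 the rise of UGT1A9 and LOC101122788 rests on replicate 5, at 27.92 and 21.86 FPKM, as the scores of the other AFB1 libraries are close (6.90 to 7.14).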

How the data were processed

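Per the labels, poly(A) RNA of sheep kidney was sequenced as stranded paired-end libraries, and the submitters' processing notes name cutadapt 1.9, HISAT2 2.2.1, StringTie 2.1.6, DESeq2 and edgeR. The authors deposited raw counts and FPKM for every gene and library. Which tool counted the reads, and on which genome build, stayed unnamed in the sources used here. Of the 25592 genes, 24947 matched the RefSeq table of ARS-UI_Ramb_v3.0 by symbol and 24848 of these had its start and end, as all 44 genes described here did, and chromosome numbers come from that table.

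Libraries were grouped by title, since the treatment field of the labels counts upward within a group. No batch is labelled, no 2 libraries held identical values, and whether a library is 1 animal is taken from the study's methods. The main model held 14 libraries and all 3 groups, without AFB1 replicate 1. Genes that reached an FPKM of 1 in 5 or more libraries were tested on the counts with edgeR 4.0.16 (TMM, quasi-likelihood), after a test on simulated data. Alternatives used limma 3.58.1 on log2(FPKM + 1) or log2(FPKM + 0.1), on which scale changes of low genes are understated, DESeq2 1.42.0, all 15 libraries, other filters, a replicate block and 1 library left out. Total counts above 50255295 make counting error small beside the spread between sheep for most genes that passed the filter.

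Every gene that passed the filter was named, and those called, past 4-fold in AFB1 replicate 1, or with a mean FPKM of at least 5 received more values. Of each list, called genes and the 1 or 2 with the highest mean FPKM were named, with PAPSS2 added after its values were seen. The genes and lists were chosen with earlier results of these data known. Results for some listed genes are not reported here.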

Additional observations from a re-analysis of the deposited data

Results flagged for a closer look

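In 7 of the 66 groups of values tested, 1 library lay far from the others of its group by Dixon's criterion, which chance meets in about 1 of 20 groups. Of the 7, 3 were in CON replicate 5, the library with the highest proximal tubule score. There UGT1A9 was at 54.26 FPKM, against 13.18 to 23.84 in the other CON libraries, and the neighbouring UGT2B4-like genes LOC114112219 and LOC114115345 were at 5.741 (0.5995 to 2.044 in the others) and 4.933 (0.5885 to 1.657).

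Another 2 were in AFB1 replicate 5, where the UGT2C1-like gene LOC101122788 was at 21.86 FPKM, against 7.717 to 9.66 in the other 3 AFB1 libraries, and CHST12 at 0.8261, against 1.892 to 2.071. CHST12 was also far from its group in AFB1_CUR replicate 2, at 3.469 against 1.081 to 1.708. The non-coding RNA LOC105606428 was at 2.546 in AFB1_CUR replicate 3, against 0.6641 to 1.041.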

How the results depend on the processing

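With 22 genes tested and 4 or 5 libraries per group, counts of called genes moved easily. Between AFB1 and CON, where 1 was called, 6 were called with all 15 libraries, 2 with no filter, and 0 with the replicate block, with limma at either pseudocount and with only the compared groups, and 0 to 2 with 1 library left out. Between AFB1_CUR and AFB1, where 0 were called, 7 were with all 15 libraries, 1 with the block, 1 with DESeq2 and 0 to 2 with 1 library left out. Between AFB1_CUR and CON, where 1 was called, 0 were with all 15 libraries and 1 to 4 with 1 left out. The 7 slopes became 15 with all 15 libraries, 1 with the block (LOC101122788), 3 without AFB1 replicate 2 and AFB1_CUR replicate 2 (a setting chosen after seeing the data) and 3 to 9 with 1 left out. Of the 20 genes at least 4-fold higher in AFB1 replicate 1, 7 were among those with an FPKM of 1 in any of the other 14 libraries (counted so after seeing the data). The 3 genes at least 4-fold lower became 6 on log2(FPKM + 0.1). Of the listed pathway genes, 2 were called between AFB1 and CON, 6 with all 15 libraries, 1 with sample quality weights (HNF4A, while ARSG and UGDH lost their calls), 1 with the block and 1 with limma at either pseudocount (ARSG each time, with UGDH at 0.58, 0.38 and 0.52 and not called) and 1 to 5 with 1 left out. Between AFB1_CUR and AFB1, where 0 of them were called, 6 were with all 15 libraries, 1 without the 2 libraries named above and 0 to 1 with 1 left out, and between AFB1_CUR and CON 0 were called throughout. Over all genes, the 232, 123 and 214 calls of the 3 comparisons became 639, 525 and 131 with all 15 libraries, 867, 707 and 928 with no filter, and 105, 81 and 80 with limma on log2(FPKM + 1).

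Values near 0 changed sign. LOC114112219 between AFB1 and CON was -0.08, 4.18 with all 15 libraries, 0.37 with weights, 0.078 with the block, 0.066 and 0.167 with limma at pseudocounts of 1 and 0.1, 0.19 without the 2 libraries named above and -0.40 to 0.61 with 1 left out. UGT1A1 was -0.01, 4.42 with all 15 libraries, 0.31 with weights and -0.23 to 0.25 with 1 left out. LOC114110057 ranged from -0.28 to 0.43 and LOC114115345 from -0.38 to 0.84 with 1 left out. Between AFB1_CUR and AFB1, all 15 libraries turned LOC114110057 to -2.87, LOC114112219 to -3.65, LOC114115345 to -3.83 and LOC121816013 to -4.07, and they turned the slopes of CHST14 to 0.013, LOC101114075 to -0.27 and LOC101122788 to -0.083. The setting with all 15 libraries differs by AFB1 replicate 1 alone. For the other changes the cause was not tested.

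No source used here states that the replicate numbers pair the sheep. Over 13 pairs of libraries with the same number, the correlation of deviations from the group means ran from -0.31 to 0.60. The pairs of replicate 2 were at 0.44, 0.60 and 0.40, and the negative ones at -0.31 (replicate 1) and -0.09 (replicate 4). Pairs with different numbers were not computed, so these values cannot decide whether the numbers pair the sheep. With the block the SULT2B1 log2 fold change between AFB1 and CON was -0.70 (unadjusted edgeR p of 0.152). SULT2B1 between AFB1_CUR and CON kept its call in 9 of the 10 other settings and lost it with all 15 libraries.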

Other observations

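Several conjugating enzymes fell outside the naming rule. A bile salt sulfotransferase-like gene (LOC101119842) had a median FPKM of 15.55 (4.704 to 51.29) in the 14 kidney libraries and 1023 in AFB1 replicate 1, which is above SULT1A1 in that library. An amine sulfotransferase-like gene (LOC101104832) was at most 0.477 in the kidney libraries and 600.7 in AFB1 replicate 1. SULT1B1 (LOC101120084), which sulfates thyroid hormones, was at 2.551 to 11.62 and at 7.381 in AFB1 replicate 1, so this gene lay within the kidney range there. The estrogen sulfotransferase (LOC101120331) was at most 0.711 against 9.438. UGT8, which makes galactosylceramide, was at 1.359 to 3.355 against 0.586.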
